A study of Mus musculus with 10 samples.

Results

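The apolipoproteins that hepatocytes secrete were followed in control livers and in livers with less Dicer1 RNA, the transcript of the enzyme that cuts microRNA precursors into mature microRNAs. The set was 10 genes, Apoa1, Apoa2, Apoa4, Apoa5, Apob, Apoc1, Apoc3, Apoe, Apoh and Apom, taken by gene symbol with every probe set of these symbols in the platform annotation. All 10 genes were found, on 16 of 25958 probe sets, among 12366 genes with a symbol of their own. RNA from whole liver of 10 mice aged 28 days and fasted for 5 hours was hybridised to Affymetrix mouse arrays, 1 array for each animal. The mutants were DicerloxP/loxP;Afp-Cre+ mice, which carry floxed Dicer alleles and a Cre recombinase driven by Afp, a gene of the fetal liver. The labels call the other mice controls without giving their genotype, and give the strain of all mice as mixed. There were 5 control and 5 mutant livers. Whole liver was measured, so fewer cells of a type and less RNA per cell cannot be told apart.

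Apolipoproteins coat the lipid particles that carry triglyceride and cholesterol in plasma. APOB is the large structural protein of very low density lipoprotein, and it is loaded with lipid in the endoplasmic reticulum as it is made. APOA1 and APOA2 form high density lipoprotein, and the small exchangeable apolipoproteins move between particles, where they activate or inhibit lipases or bind receptors. Apoa1, Apoc3, Apoa4 and Apoa5 are consecutive protein-coding genes on chromosome 9, and Apoc4, Apoc1 and Apoe are consecutive on chromosome 7, in the RefSeq annotation of GRCm38.p6.

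RefSeq promoter sequence was matched by symbol for 8 of the 10 genes. The 250 bases before the annotated start are shown for 3 neighbours of the chromosome 9 cluster, which differed in spread between arrays, and for Apob. All are on the plus strand of GRCm38.p6, written 5′ to 3′, and capitals mark matches on either strand to TATAAA, the core of a TATA box, and to CAAAGTTCA and CAAAGGTCC, both forms of the element bound by nuclear receptors such as HNF4A.
Apoa1, chr9:46228380-46228629: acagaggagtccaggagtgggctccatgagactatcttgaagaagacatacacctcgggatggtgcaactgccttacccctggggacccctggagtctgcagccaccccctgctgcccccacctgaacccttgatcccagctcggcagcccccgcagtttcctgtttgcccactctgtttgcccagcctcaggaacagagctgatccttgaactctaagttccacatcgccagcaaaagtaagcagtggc
Apoa4, chr9:46240594-46240843: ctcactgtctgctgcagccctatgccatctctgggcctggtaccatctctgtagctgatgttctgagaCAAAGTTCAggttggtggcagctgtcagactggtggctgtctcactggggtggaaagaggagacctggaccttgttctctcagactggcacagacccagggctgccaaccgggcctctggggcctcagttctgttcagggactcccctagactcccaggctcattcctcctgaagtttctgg
Apoa5, chr9:46268358-46268607: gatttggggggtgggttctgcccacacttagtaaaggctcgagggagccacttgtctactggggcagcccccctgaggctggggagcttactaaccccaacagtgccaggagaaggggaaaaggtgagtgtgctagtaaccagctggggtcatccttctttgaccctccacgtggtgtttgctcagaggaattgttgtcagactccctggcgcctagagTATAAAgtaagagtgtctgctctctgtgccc
Apob, chr12:7977427-7977676: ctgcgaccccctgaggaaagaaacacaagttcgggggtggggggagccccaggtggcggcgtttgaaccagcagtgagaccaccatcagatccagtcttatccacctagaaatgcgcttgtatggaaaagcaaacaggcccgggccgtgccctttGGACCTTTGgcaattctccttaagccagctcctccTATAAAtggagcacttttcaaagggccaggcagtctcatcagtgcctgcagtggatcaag
The Apoa1 window held none of these exact letters. Only exact matches were searched, so other forms of the element could lie unmarked in any of the windows. The Apoa4 window held CAAAGTTCA starting 182 bases before the start, and the Apoa5 window held TATAAA starting 31 bases before it. The Apob window held TATAAA starting 60 bases before the start and, on the other strand, CAAAGGTCC 95 bases before it. Of 32851 RefSeq windows of the same length, 12.4% held TATAAA, 0.335% held CAAAGTTCA and 0.262% held CAAAGGTCC. The motifs were chosen with these sequences in view, so these shares do not measure how unusual the matches are. They describe the windows, not binding.

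Dicer1 was lower in all 5 mutants on both of its probe sets, by 2.31 (SE 0.10, adjusted p = 4.1e-05) and by 1.03 (SE 0.07, adjusted p = 0.000678) on the log2 scale. Over all probe sets 13.2% were called, 5.8% higher and 7.39% lower in mutants, at a limma adjusted p under 0.05. These were 1505 higher and 1917 lower probe sets. The split turned to 1791 higher and 1204 lower when each array's shift over bright probe sets was removed, an alternative chosen after seeing the data. The deposited values run from 0.27 to 16.65, and the medians of the arrays from 6.40 to 6.67. Over the whole table, correlations of single arrays with each other lay between 0.970 and 0.993.

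No apolipoprotein probe set passed the test in either direction. Of the 16 probe sets, 0 were called higher and 0 lower, against 5.8% and 7.39% of all probe sets. An unadjusted limma p under 0.05 was found for 1 of the 16, on Apoa1, against 28.7% of all probe sets. The groups did not overlap on that same probe set alone, against 10.3% of all probe sets. Mutant minus control lay between -0.42 and 0.21, its median being -0.07, against -0.01 over all probe sets, and 12 of 16 were negative, against 53.5% of all probe sets. Adjusted p-values ran from 0.12 to 0.996. Probe sets of 1 gene share a transcript and are not independent. By the brightest probe set of each gene, 7 of 10 were negative with a median of -0.03, against 54.8% and -0.01 over all genes. Among probe sets of other genes or none with a mean of at least 14, 59.2% were negative.

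**Figure D1:**
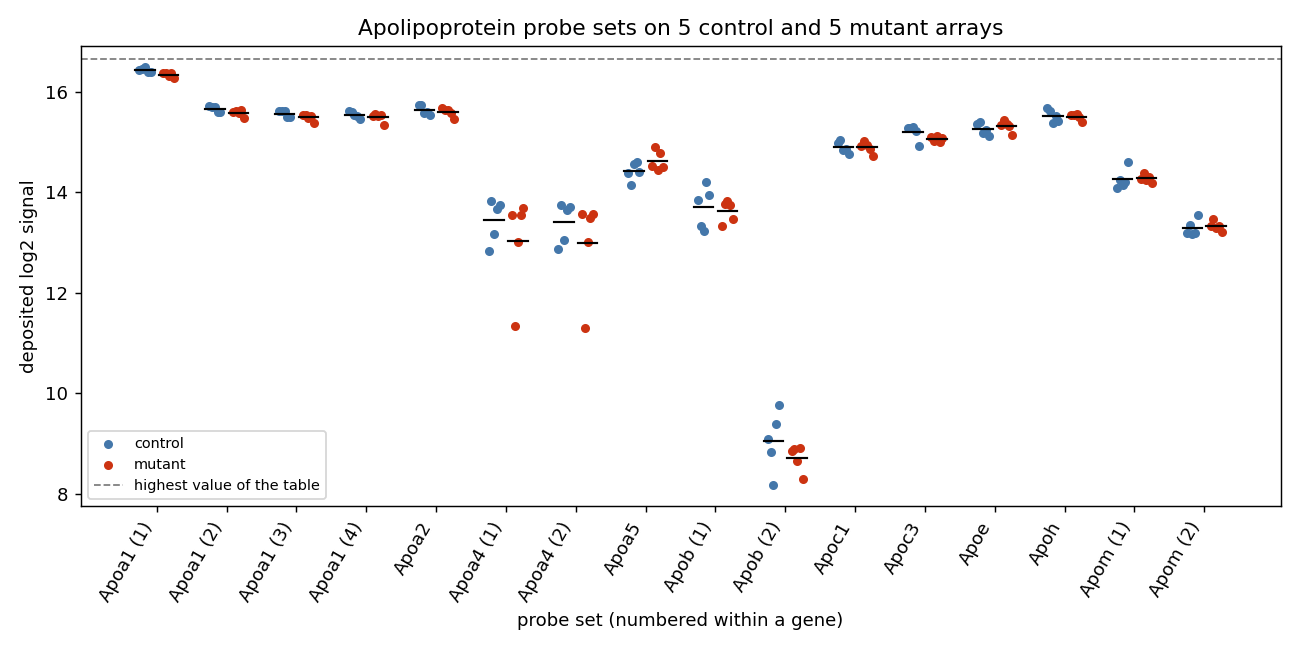
Deposited log2 signal of the 16 apolipoprotein probe sets (x axis, numbered within a gene) on 5 control arrays (blue) and 5 mutant arrays (red), with group means as black bars and the highest value of the table, 16.65, as a dashed line. The groups overlap on all probe sets but the brightest of Apoa1, and 1 mutant array lies far below the others on both Apoa4 probe sets.

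Apoa1, the main protein of high density lipoprotein and the activator of the cholesterol-esterifying enzyme LCAT, was measured by 4 probe sets. On the brightest, control replicates 1 to 5 gave 16.44, 16.45, 16.50, 16.40 and 16.40, and mutant replicates 1 to 5 gave 16.37, 16.38, 16.32, 16.37 and 16.28. Every mutant lay below every control, by a margin of a few hundredths of a log2 unit. The difference was -0.09 (SE 0.04, 95% interval -0.18 to -0.01, adjusted p = 0.12 by limma), from a control mean of 16.44 ± 0.04 to a mutant mean of 16.34 ± 0.04 (SD, n = 5 each). A two-sided exact permutation test of this probe set gave p = 0.00794, the smallest that 5 against 5 arrays can give. Groups without overlap always give this value, so it adds nothing to the lack of overlap. Adjusted by Benjamini-Hochberg over the 16 probe sets, the permutation p was 0.127. The other 3 probe sets differed by -0.08, -0.08 and -0.05 (adjusted p = 0.256, 0.328 and 0.59), and their groups overlapped. Relative to the control means, the 4 probe sets differed among themselves by at most 0.09 on any array. The difference on the brightest Apoa1 probe set was -0.04 with the shift of bright probe sets removed from each array, and was not called there. Quantile normalization gives the same value to the same rank on every array. For a probe set at rank 2 of the table that fit, with a difference of 0.00, could hardly show any, and nothing is drawn from it. Over the fits without 1 array the difference on this probe set lay between -0.10 and -0.08.

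Apoa2, the second protein of high density lipoprotein, stood at 15.74, 15.75, 15.59, 15.61 and 15.54 in controls and at 15.68, 15.64, 15.64, 15.59 and 15.46 in mutants. The ranges overlapped almost wholly, and mutant replicate 5 alone lay below all controls. The difference was -0.04 (SE 0.06, 95% interval -0.18 to 0.09, adjusted p = 0.707).

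Apom, which carries sphingosine-1-phosphate on high density lipoprotein, was measured by a pair of probe sets. On the brighter of them, controls gave 14.08, 14.25, 14.15, 14.21 and 14.60 and mutants gave 14.27, 14.38, 14.25, 14.30 and 14.18. Control replicate 5 was the highest of all arrays on both probe sets, and the groups overlapped. The differences were 0.02 (SE 0.09, 95% interval -0.19 to 0.23) and 0.04 (SE 0.08, 95% interval -0.15 to 0.23), with adjusted p of 0.958 and 0.846. The pair differed by at most 0.08 on any array. The brighter one turned negative without control replicate 1 (-0.03), control replicate 3 (-0.01) or mutant replicate 2 (-0.01).

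Apob, the structural protein of very low density lipoprotein, was measured by 1 bright and 1 dimmer probe set. On the bright one controls gave 13.85, 13.34, 13.23, 14.20 and 13.94, and mutants gave 13.33, 13.76, 13.83, 13.74 and 13.47. The mutants lay within the range of the controls. The difference was -0.08 (SE 0.19, 95% interval -0.52 to 0.35, adjusted p = 0.862), and it was 0.04 without control replicate 4. On the dimmer probe set controls gave 9.10, 8.84, 8.17, 9.40 and 9.77 and mutants 8.85, 8.89, 8.65, 8.92 and 8.29. All 5 mutants lay below the control mean of 9.06 there, but inside the control range. The difference was -0.33 (SE 0.28, 95% interval -0.95 to 0.29, adjusted p = 0.496), and it was -0.56 without control replicate 3 and -0.15 without control replicate 5. Relative to the control means, both probe sets differed by up to 0.53 on 1 array, more than those of the other genes with several probe sets.

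Apoe, the ligand by which remnant particles bind hepatic receptors, gave 15.37, 15.40, 15.19, 15.24 and 15.13 in controls and 15.34, 15.45, 15.36, 15.32 and 15.14 in mutants. The groups overlapped, and replicate 5 was the lowest array in each. The difference was 0.05 (SE 0.07, 95% interval -0.11 to 0.22, adjusted p = 0.703). Macrophages also express Apoe. In the same livers 5 of 12 measured macrophage and Kupffer cell markers rose and 0 fell, against 7.29% and 9.56% of all genes. The mean level of these markers ran from 8.93 to 9.96 in controls and from 9.92 to 10.48 in mutants. The part of this in the Apoe values was not tested.

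Apoc1, a small apolipoprotein that inhibits lipid transfer and uptake, lies next to Apoe. It gave 14.98, 15.04, 14.84, 14.87 and 14.77 in controls and 14.93, 15.02, 14.94, 14.87 and 14.72 in mutants. The group means were both 14.90, and the 95% interval of the difference ran from -0.16 to 0.15 (adjusted p = 0.996). Leaving out 1 array gave -0.03 to 0.04.

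Apoc3, an inhibitor of lipoprotein lipase and of remnant uptake, gave 15.29, 15.29, 15.31, 15.22 and 14.93 in controls and 15.10, 15.03, 15.13, 15 and 15.09 in mutants. Control replicate 5 lay below all mutants, and the other 4 controls lay above all of them. The difference was -0.14 (SE 0.07, 95% interval -0.30 to 0.03, adjusted p = 0.262). Without control replicate 5 it was -0.21 with an adjusted p of 0.0284 by limma, and this was the only call of any apolipoprotein probe set among the fits that left out 1 array. In the other 9 such fits its adjusted p reached 0.433.

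Apoa4, an apolipoprotein of triglyceride-rich particles made in intestine and, in mice, in liver, varied most. On the brighter of its probe sets controls gave 12.84, 13.82, 13.17, 13.68 and 13.74, and mutants gave 13.56, 11.34, 13.01, 13.55 and 13.69. Mutant replicate 2 lay far below the other 9 arrays, and the other 4 mutants lay within the control range. The second probe set gave 11.30 on mutant replicate 2, which is -1.57 relative to the lowest other array, and 13.02 to 13.58 on the other mutants, against 12.88 to 13.75 in controls. The difference was -0.42 on each (SE 0.44 on each, 95% intervals -1.42 to 0.58 and -1.40 to 0.57, adjusted p = 0.616 and 0.611). Without mutant replicate 2 the mutants averaged 13.46 ± 0.30 (SD, n = 4) on the brighter probe set, and the difference was 0.01 on each (adjusted p = 0.992 and 0.993 by limma). Both probe sets moved together, within 0.08 on every array.

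The spread of Apoa4 within groups exceeded that of most probe sets of like brightness. Its pooled within-group SD was 0.76 and 0.75, above 98.7% and 97.9% of the probe sets of other genes or none within 0.5 of its mean level, whose medians were 0.14 and 0.15. Mutant replicate 2 made up much of this. The mutant SD was 0.98 and 0.97 with it and 0.30 and 0.27 without it, and the control SD was 0.42 and 0.41. The percentiles were not computed without it. The pooled SD of Apob also lay high, with 0.33 (percentile 90.1) and 0.47 (percentile 92.8). The brightest Apoa1 probe set had an SD of 0.04, below all 8 such probe sets near it, whose median was 0.09.

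Apoa5, which promotes lipolysis of triglyceride-rich particles, gave 14.38, 14.15, 14.57, 14.61 and 14.41 in controls and 14.52, 14.90, 14.44, 14.79 and 14.50 in mutants. Mutant replicates 2 and 4 lay above all controls and the other mutants lay among them. The difference was 0.21 (SE 0.12, 95% interval -0.06 to 0.47, adjusted p = 0.29), the highest of the 16. On mutant replicate 2 this gene was at its highest, where its neighbour Apoa4 was at its lowest.

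Apoh, the plasma glycoprotein also known as beta-2-glycoprotein I, gave 15.69, 15.62, 15.38, 15.53 and 15.42 in controls and 15.55, 15.54, 15.56, 15.50 and 15.40 in mutants. All mutants lay within the control range. The difference was -0.02 (SE 0.07, 95% interval -0.17 to 0.13, adjusted p = 0.914). Leaving out 1 array gave -0.06 to 0.02.

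**Figure D2:**
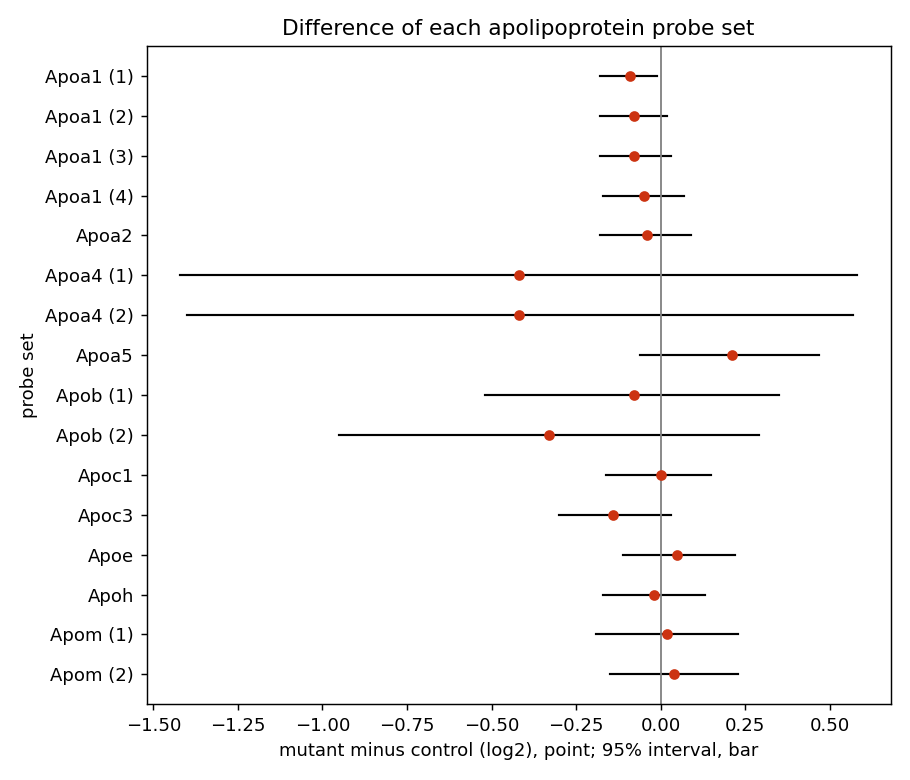
Mutant minus control on the log2 scale (points) with the 95% limma interval (bars) for the 16 apolipoprotein probe sets. The intervals are narrow for Apoa1, whose brightest probe set runs from -0.18 to -0.01, and wide for Apoa4, from -1.42 to 0.58.

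Most of these signals lay near the top of the scale, where a change in RNA can give a smaller change in signal. Of the 16 probe sets, 11 had a mean of at least 14 and 8 a mean of at least 15, levels reached by 261 and 65 of all probe sets. The brightest Apoa1 probe set was the second brightest of the table and its mean lay 0.26 below the highest value. The other Apoa1 probe sets, Apoa2 and Apoh lay 1.03 to 1.14 below it, and Apoa4 and the bright Apob probe set 2.99 to 3.45 below it. Among all probe sets the share called was 29.5% at means from 13 to 14, 21.4% from 14 to 15, 10.3% from 15 to 16, and 0 of 7 above 16. The median absolute difference fell over the same bins from 0.21 to 0.16, 0.08 and 0.08. Whether saturation reduced the differences of the apolipoproteins was not tested. Of the 250 probe sets of other genes or none with a mean of at least 14, 9 were called higher and 39 lower, which is 19.2%, and their median difference was -0.07. The 11 apolipoprotein probe sets at this level had 0 calls and a median difference of -0.04.

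**Figure D3:**
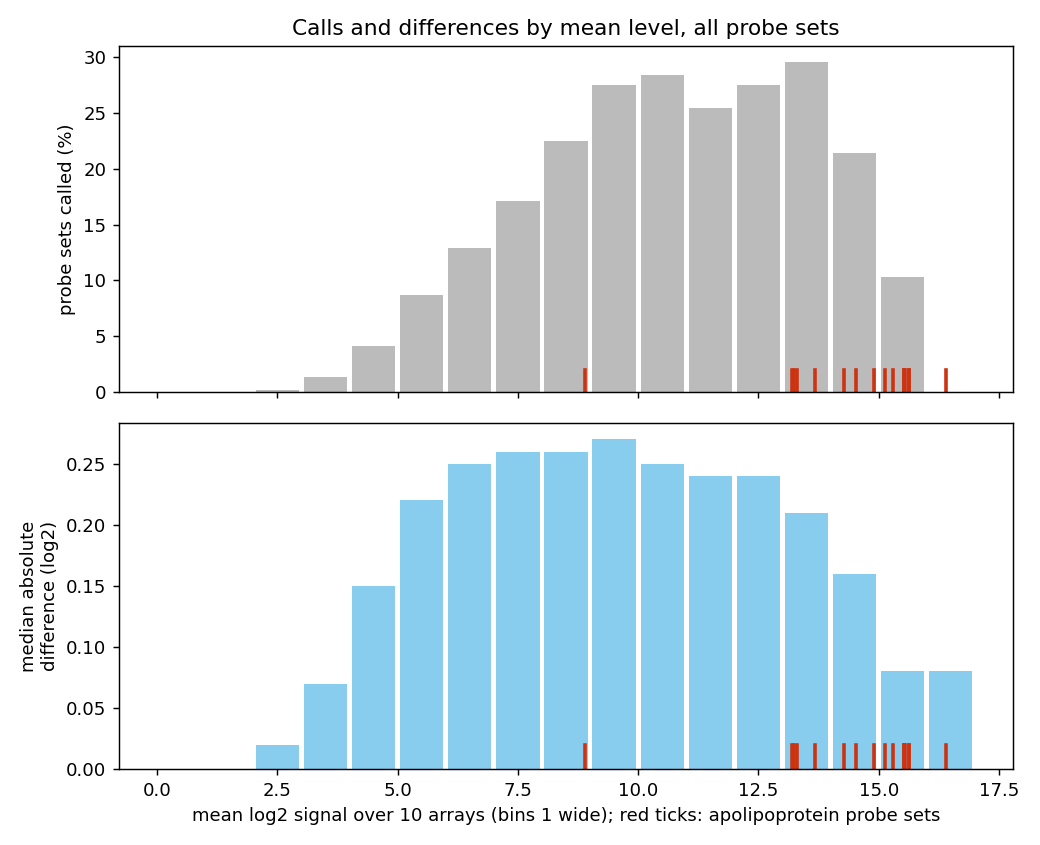
Share of probe sets called (upper bars, percent) and median absolute difference between mutants and controls (lower bars, log2) by mean log2 signal over 10 arrays in bins 1 wide, with the 16 apolipoprotein probe sets as red ticks. Both bars are lower at means of 15 to 16 (10.3% and 0.08), where 7 of the apolipoprotein probe sets lie, than at 13 to 14 (29.5% and 0.21).

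The apolipoproteins were not equally high on all arrays of a group. Mutant replicate 5 had the lowest mutant value on 11 of the 16 probe sets, and their median there was 0.12 below the mutant mean. Control replicate 5 had the lowest control value on 8 of the 16. On the other mutants the median lay from 0.01 to 0.06 above the mutant mean. The 250 other bright probe sets had medians from -0.01 to 0.03 on the mutant arrays, and 36.8% of them were lowest on mutant replicate 5. Leaving it out called 0 of the 16 probe sets, while it raised the calls over all probe sets to 2115 higher and 3194 lower.

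Some genes that build and load the particles passed the test. Of 18 measured genes of lipoprotein assembly and secretion, 5 rose and 1 fell, against 7.29% and 9.56% of all genes, and the median difference was 0.14, against -0.01. Their mean levels ran from 8.04 to 14.1. In the bins of mean level from 8 to 14, 22.5% to 29.5% of all probe sets were called in either direction. Without 1 array the counts of this list ran from 2 to 5 higher and from 0 to 1 lower, and a replicate block gave 3 and 1. Tm6sf2, which promotes lipid loading of very low density lipoprotein, gave 9.60, 9.99, 9.77, 9.39 and 9.95 in controls and 10.69, 11.38, 10.96, 11.11 and 10.54 in mutants. It rose by 1.19 (SE 0.17, adjusted p = 0.00747), and the groups did not overlap. Mttp, the transfer protein that lipidates APOB, gave 12.16, 12.21, 12.16, 12.35 and 12.54 in controls and 12.87, 13.02, 12.99, 13.00 and 12.58 in mutants. It rose by 0.61 (SE 0.10, adjusted p = 0.0111), again without overlap, and by 0.43 on its other probe set. Both calls held with any 1 array left out.

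The kinesin heavy chain Kif5b rose by 0.47 (adjusted p = 0.0245), though its 6 probe sets ran from -0.04 to 0.60. Pla2g12b, a secreted phospholipase relative needed for triglyceride secretion, fell by 0.40 (adjusted p = 0.0278). The remaining calls were Creb3l3, a transcription factor of Apoa4 and Apoa5, at 0.30 (adjusted p = 0.0432), and the lipid droplet coat Plin2 at 0.62 (adjusted p = 0.0408). Leaving out control replicate 4 or 5, or mutant replicate 2, 3 or 4, took Kif5b past the threshold, with adjusted p between 0.0532 and 0.0586. Pla2g12b stayed called when control replicate 1, control replicate 4 or mutant replicate 5 was left out, and reached 0.0672 in the other such fits. It also lost its call with the shift of bright probe sets removed (adjusted p = 0.0562). Creb3l3 stayed called with control replicate 4 or mutant replicate 5 left out (up to 0.0988 in the others), and Plin2 with mutant replicate 5 left out (up to 0.0949 in the others). Creb3l3 was also not called with the array median (adjusted p = 0.101) or the 75th percentile (0.0532) subtracted, nor Plin2 with Y-linked signal as a covariate (0.0506).

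Of 12 measured genes of high density lipoprotein formation, 2 rose and 1 fell, against 7.29% and 9.56% of all genes, and the median difference was 0.31. Their mean levels ran from 6.64 to 14.73. In the bins of mean level from 6 to 15, 12.9% to 29.5% of all probe sets were called in either direction. Abca1, the transporter that loads cholesterol onto APOA1, gave 12.70, 12.79, 12.56, 12.72 and 12.57 in controls and 13.03, 13.21, 13.14, 13.20 and 12.98 in mutants. It rose by 0.44 (SE 0.06, adjusted p = 0.00747) without overlap, and its 3 probe sets ran from 0.14 to 0.44. Pdzk1, the scaffold that holds the receptor SCARB1 at the hepatocyte surface, rose by 0.61 (SE 0.13, adjusted p = 0.0179). Both calls held with any 1 array left out. Naxe, also known as APOA1-binding protein, fell by 0.54 (SE 0.14, adjusted p = 0.0347), a call that remained with mutant replicate 5 left out and reached 0.0771 in the other fits. Lcat, whose enzyme APOA1 activates, had control and mutant means of 13.46 ± 0.04 and 13.45 ± 0.12 (SD, n = 5 each).

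Of 10 measured receptors and clearance genes, 2 rose and 0 fell, against 7.29% and 9.56% of all genes. Most of them had mean levels from 8 to 13, where 22.5% to 28.4% of all probe sets were called in either direction, by bin. The higher count was 1 with the array median subtracted, where Lrp1 lost its call, and 0 with a replicate block. Lrp1, a remnant receptor that binds APOE, rose by 0.39 (SE 0.10, adjusted p = 0.0356), and the heparan sulfate proteoglycan Sdc1 rose by 0.60 (SE 0.16, adjusted p = 0.0369). With control replicate 1, mutant replicate 1 or mutant replicate 5 left out Lrp1 stayed called, and otherwise its adjusted p reached 0.0839. Sdc1 stayed called with mutant replicate 1 or 5 left out, and otherwise reached 0.0794. Of 7 genes of lipoprotein lipase and its regulators, Lmf1, a lipase maturation factor, fell by 0.75 (SE 0.18, adjusted p = 0.0297) and 0 rose, against 9.56% and 7.29% of all genes. It stayed called with control replicate 1 or mutant replicate 5 left out, and reached 0.0707 in the other fits. Lpl, the lipase itself, had control and mutant means of 12.69 ± 0.54 and 13.44 ± 0.15 (SD, n = 5 each), which differ by 0.76 (adjusted p = 0.0638). Lpl was called higher under 5 alternatives: the array median subtracted (adjusted p = 0.042), the 75th percentile subtracted (0.0473), no dim probe sets (0.0303), 1 probe set per gene (0.0484) and array weights (0.0302). It was also called without control replicate 5 (0.0144).

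Of 12 other apolipoprotein genes measured, 1 rose and 1 fell, which is near the 7.29% and 9.56% of all genes. Apol7a, of the apolipoprotein L family, rose by 0.96 (SE 0.18, adjusted p = 0.0132), and Apon, apolipoprotein N, fell by 0.67 (SE 0.19, adjusted p = 0.0467). Apol7a gave 11.15, 11.17, 11.02, 10.44 and 10.34 in controls and 11.64, 11.76, 12.01, 11.72 and 11.82 in mutants, without overlap, and its call held with any 1 array left out. Apon gave 13.57, 13.74, 13.42, 13.47 and 13.62 in controls and 12.92, 12.22, 13.23, 12.77 and 13.31 in mutants, also without overlap. It stayed called with mutant replicate 2 or 5 left out, and reached 0.103 in the other such fits. Apon also lost its call after quantile normalization (adjusted p = 0.0591), with Y-linked signal as a covariate (0.0621) and with the shift of bright probe sets removed (0.0604). In the chromosome 7 cluster, Apoc2, the activator of lipoprotein lipase, differed by 0.14 (adjusted p = 0.303) and Apoc4 by -0.09 (adjusted p = 0.303).

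Among 26 measured transcription factors of apolipoprotein genes, 0 rose and 1 fell, against 7.29% and 9.56% of all genes, and the median difference was 0.09. These counts were 2 and 2 without dim probe sets, and the lower count was 0 with the shift of bright probe sets removed, where Nr2f6 lost its call. The orphan receptor Nr2f6 fell by 0.52 (SE 0.13, adjusted p = 0.0291), a call that remained with control replicate 2, mutant replicate 3 or mutant replicate 5 left out and reached 0.0679 in the other fits. Hnf4a, the nuclear receptor that drives many of the 10 genes in hepatocytes, differed by 0.18 (SE 0.13, adjusted p = 0.435). Of 7 genes of Apob RNA editing, 0 rose and Hnrnpab, an RNA-binding protein, fell by 0.22 (SE 0.06, adjusted p = 0.0387), and its 7 probe sets lay between -0.30 and -0.01. The share of all genes that fell was 9.56%. It stayed called with control replicate 5, mutant replicate 4 or mutant replicate 5 left out, and reached 0.0839 in the other such fits. Hnrnpab also lost its call under 7 other alternatives, with an adjusted p of up to 0.136. The counts of this list turned to 1 higher and 0 lower with the array median or the 75th percentile subtracted and without dim probe sets. With array weights they were 1 higher and 1 lower. Apobec1, the deaminase that edits Apob, differed by 0.73 (SE 0.23, adjusted p = 0.068) and was not called in the main fit. Its call under each alternative was not followed singly, so it may be the gene counted higher there.

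**Figure D4:**
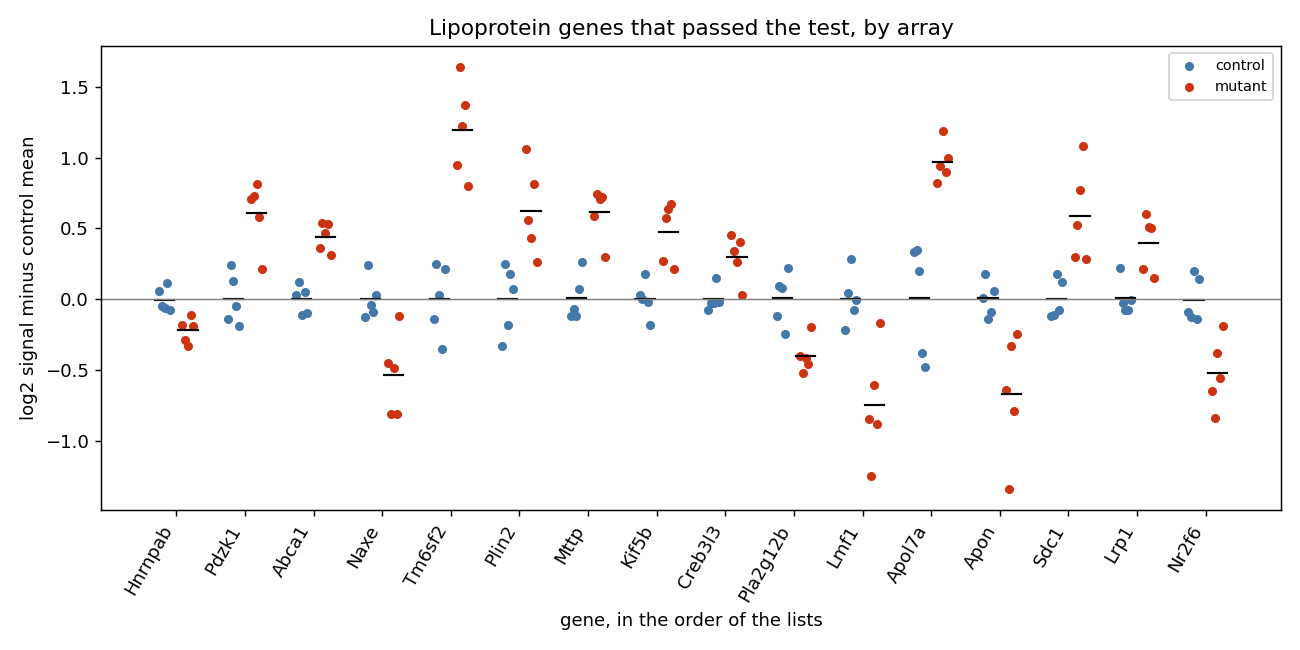
Log2 signal minus the control mean for the lipoprotein genes that passed the test, on 5 control arrays (blue) and 5 mutant arrays (red), with group means as black bars. The groups do not overlap for Tm6sf2, Mttp, Abca1, Apol7a and Apon, among others.

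Markers were read beside these results, and of all genes 7.29% rose and 9.56% fell. Of 9 measured hepatocyte markers, 0 rose and 0 fell, with a median difference of 0.00, and their mean level ran from 14.30 to 14.73 in controls and from 14.45 to 14.77 in mutants. Stellate cell markers rose for 4 of 7 and fell for 0, with mean levels of 9.81 to 10.08 in controls and 10.32 to 10.83 in mutants. Of 6 biliary and progenitor markers 2 rose and 0 fell (5.13 to 5.73 and 6.19 to 7.23), and of 6 endothelial markers 0 rose and 1 fell (9.12 to 9.55 and 8.91 to 9.16). The enterocyte list, relevant to Apoa4 and Apob, had 2 measured genes, of which Fabp2 stood at 12.32 and 12.29 and Alpi at 2.20 and 2.19 in controls and mutants, with neither called. Alpi lay under the 25th percentile of all values, 3.6, and Fabp2 far above the median probe set mean of 6.55. The 2 genes disagree, so nothing about enterocytes is drawn from them. For erythroid cells and lymphocytes 1 marker each was measured, and neither was called. The part of these cell types in the values above was not tested.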

How the data were processed

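The values analysed are the log2 signals that the authors deposited, in 1 table for all arrays. The log base was read from the values. For the normalization, background correction and probe summary, no method is named in the labels or headers. Per the labels' protocols, total RNA was amplified and labelled with biotin. Precision is limited by the 5 arrays in each group.

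After 37 control probe sets were left out, 21613 probe sets had 1 gene symbol, 638 several and 3707 none in the platform annotation. Symbols were checked through gene identifiers against RefSeq on GRCm38.p6, which changed 0 and left 61 unmatched. All 25958 probe sets entered 1 limma model (version 3.58.1, R 4.3.3, functions lmFit and eBayes) of mutant minus control. Tests were two-sided, p-values were adjusted by Benjamini-Hochberg over the whole table, and a call is an adjusted p under 0.05. Adjusted p-values come from this model, or from the same model under the alternative or left-out array that the sentence names. SE is the moderated standard error. For gene lists each gene was represented by its probe set with the highest mean. Litter, sex and batch are not in the labels, so a p-value reflects only how these 10 livers vary. The signal of 3 Y-linked probe sets was high on control replicates 1, 4 and 5 and mutant replicates 1, 3 and 4. It was low on control replicates 2 and 3 and mutant replicates 2 and 5.

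The members and lists were chosen with earlier results of these data known. Named were all members, Dicer1 and, of each list, up to 4 called genes with the smallest p. Creb3l3, Plin2, Lcat, Lpl, Apoc2, Apoc4, Hnf4a, Apobec1, Saa1, Saa2, Angptl8, Srebf1 and Nr0b2 were named after their values were seen. The planned search for genes with a pattern like a called member had 0 called members to start from. The fit was tested on simulated data. Alternatives were other scalings, eBayes options, a filter on dim probe sets, 1 probe set per gene, array weights, a replicate block, Y-linked signal as a covariate, an exact permutation test, a linear scale and leaving out each array.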

Additional observations from a re-analysis of the deposited data

Results flagged for a closer look

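Some arrays stood apart from the rest of their group by Dixon's ratio, the gap to the nearest array over the range of the group, which was above the critical value of 0.71 in 8 of 74 groups examined. Chance alone gives this in about 5% of independent groups, a share that cannot be set against this count. The groups include several probe sets of 1 gene, genes taken because they were called, and Saa1, Saa2 and Lpl, added after their values were seen. Among the apolipoproteins, mutant replicate 2 was low on the second Apoa4 probe set (0.756), mutant replicate 5 on 1 Apoa1 probe set (0.789) and control replicate 5 on Apoc3 (0.758). Mutant replicate 4 was high on Saa1 (0.72) and Saa2 (0.751), and mutant replicate 2 on Lpl (0.786). Control replicate 4 was high on Creb3l3 (0.736) and control replicate 1 on Lrp1 (0.758).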

How the results depend on the processing

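Of 346 values of the 16 apolipoprotein probe sets under alternatives, 325 kept their sign without a call, 1 was called (Apoc3 without control replicate 5) and 20, on 7 probe sets, changed sign without a call. Without 1 array the number called lower ran from 0 to 1, and no other setting called any, also not an adjusted p under 0.1. The changes of sign were Apoc1 at 0.01 with the array median subtracted, 0.03 with the 75th percentile and 0.01 with array weights, and Apoh at 0.01 with the 75th percentile. With the shift of bright probe sets removed Apoc1 was 0.05, Apoh 0.03 and Apoa2 0.01. Without 1 array Apoc1 ran from -0.03 to 0.04, Apoh from -0.06 to 0.02, the brighter Apom probe set from -0.03 to 0.10, the bright Apob probe set from -0.20 to 0.04, and the Apoa4 probe sets from -0.58 and -0.56 to 0.01. Over the 7 lists together 10 genes were higher and 6 lower. These counts were 16 higher without dim probe sets, 2 lower with the shift of bright probe sets removed, and 5 to 14 higher and 0 to 9 lower without 1 array. Leaving out control replicate 2, control replicate 3, control replicate 4, mutant replicate 2 or mutant replicate 4 gave a higher count of 6 or less, and the lower count 2 or less with any 1 array but mutant replicate 5 left out. Over all probe sets, calls without 1 array ran from 776 to 2115 higher and from 770 to 3194 lower. A replicate block gave 6 higher and 2 lower, with Apon, Creb3l3, Hnrnpab, Lmf1, Lrp1, Naxe, Plin2 and Sdc1 no longer called, and 907 and 1342 probe sets in all. The labels tie nothing to the replicate numbers. Deviations of same-numbered arrays correlated from -0.18 to 0.15, and 1 of 5 controls, replicate 5 (0.15), correlated best with its own number. Control replicate 5 and mutant replicate 5 were lowest in their groups on 8 and 9 of the 11 bright apolipoprotein probe sets, and a shared batch was not tested. The cause of these changes was not tested.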

Other observations

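Saa1 and Saa2, acute phase apolipoproteins that replace APOA1 on high density lipoprotein in inflammation, were high in a single liver. Saa1 gave 11.47, 9.98, 10.98, 10.16 and 10.37 in controls and 11.22, 10.22, 10.76, 14.94 and 11.54 in mutants, and Saa2 gave 13.98 on the same array, mutant replicate 4, against 8.91 to 10.39 on the others. Neither was called (adjusted p = 0.413 and 0.424 by limma), and without mutant replicate 4 the differences were 0.34 and 0.31. On that array the brightest Apoa1 probe set, whose mean lay 0.26 below the highest value, stood at 16.37, within the range of the other mutants. The replacement on particles is of protein, which was not measured.

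Angptl8, Srebf1 and Nr0b2 were chosen after their values were seen, and none was called. Angptl8, a feeding-induced inhibitor of lipoprotein lipase, ran from 7.42 to 11.07 in controls and from 5.33 to 10.03 in mutants (difference -1.83, SE 0.99, adjusted p = 0.27). Srebf1, the transcription factor of fatty acid synthesis, ran from 10.20 to 10.94 and from 8.70 to 10.56 (means 10.50 and 9.50, adjusted p = 0.0816). Nr0b2, a repressor of nuclear receptors, ran from 7.75 to 9.57 and from 9.12 to 10.72 (difference 1.13, adjusted p = 0.0865).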
